A study of Mus musculus with 2 samples.

Results

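Gamma-delta receptor intraepithelial lymphocytes are T cells that sit between the epithelial cells of the gut and carry a receptor made of a gamma and a delta chain. In single-cell RNA counts of mouse duodenal crypts they were selected on UMIs (unique molecular identifiers, each counted as 1 captured RNA molecule) of receptor and marker genes. A member had 500 genes or more, a mitochondrial share of UMIs of 25% or less, at least 2 UMIs of Ptprc, Cd3d, Cd3e and Cd3g together, at most 1 UMI of the epithelial gene Epcam, and more UMIs of Trdc and Trgc1 than of Trbc1 and Trbc2. The gate held 177 cells, of 7784 barcodes that passed the limits on genes and mitochondrial UMIs and of 12756 barcodes in all. Of these, 139 came from the library with barcode suffix 1 and 38 from the library with suffix 2. The alpha-beta cells set beside them passed the same gate with more UMIs of Trbc1 and Trbc2, and numbered 93 in library 1 and 151 in library 2.

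The crypts came from wild-type mice in groups labelled NT and ES, letters that the labels do not spell out, in a series on chronic stress and the aging of intestinal stem cells. Per the labels' protocols, crypts were loosened with 5 mM EDTA over 30 min on ice, sieved at 70 µm, dissociated with TrypLE for 5 min, sieved at 40 µm, and pooled from 5 animals in each group. Neither the mice's age nor their sex is given in the sources used here. No label ties a barcode suffix to NT or ES, so values are given by numbered library, and no direction between the groups is drawn. Each library is 1 pooled sample without a replicate, so that no test between libraries was possible and all intervals below cover counting error only.

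Gamma-delta intraepithelial lymphocytes of the natural type reach the gut early, stay there, and recognise epithelial ligands such as butyrophilin-like proteins rather than peptides held by classical MHC molecules. They carry CD8 as a pair of alpha chains, bind E-cadherin through the integrin CD103, store granzymes before any encounter with an antigen, and respond to interleukin-15. Alpha-beta cells of the same layer are a mixture of natural cells and of conventional T cells that entered later and keep surface molecules such as CD5, CD6, Thy1 and the CD8 beta chain.

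The receptor counts chose the cells and are given as a description. The sum of Trdc, the constant gene of the delta chain (chromosome 14, 54142851 to 54148868, plus strand, mouse build GRCm38), and Trgc1, a constant gene of the gamma chain (chromosome 13, 19214103 to 19217024, plus strand), had a median of 14 UMIs per cell in library 1 (1 to 51) and of 15.5 in library 2 (1 to 52). The sum of Trbc1 and Trbc2, the constant genes of the beta chain, had a median of 4 in either library (0 to 16 in each), and 131 of 139 and 33 of 38 gamma-delta cells carried at least 1 such UMI. Transcripts of the beta constant genes were therefore present in most cells of the gamma-delta gate, at a level that epithelial cells did not have. Epithelial comparison cells (at least 2 Epcam UMIs and none of the 4 T cell genes) held Trbc2 at 2.95 CPM (the UMIs of a gene per 1000000 UMIs, both summed over the cells of a class in a library) in library 1 and 5.62 in library 2, against 1175 and 1017 CPM in gamma-delta cells. Near the threshold, 9 cells of library 1 and 3 of library 2 were inside by 1 UMI, 4 and 21 were tied and left out, and 8 and 12 were outside by 1 UMI. A margin of 8 or more separated 83 of the 139 cells and 24 of the 38. Of the constant genes, Trbc1 shares 40.5% of its 50-base windows with Trbc2, and Trgc1 shares 17.9% with Trgc2 and 22.2% with Trgc3, so how reads were split within these families is uncertain.

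**Figure D1:**
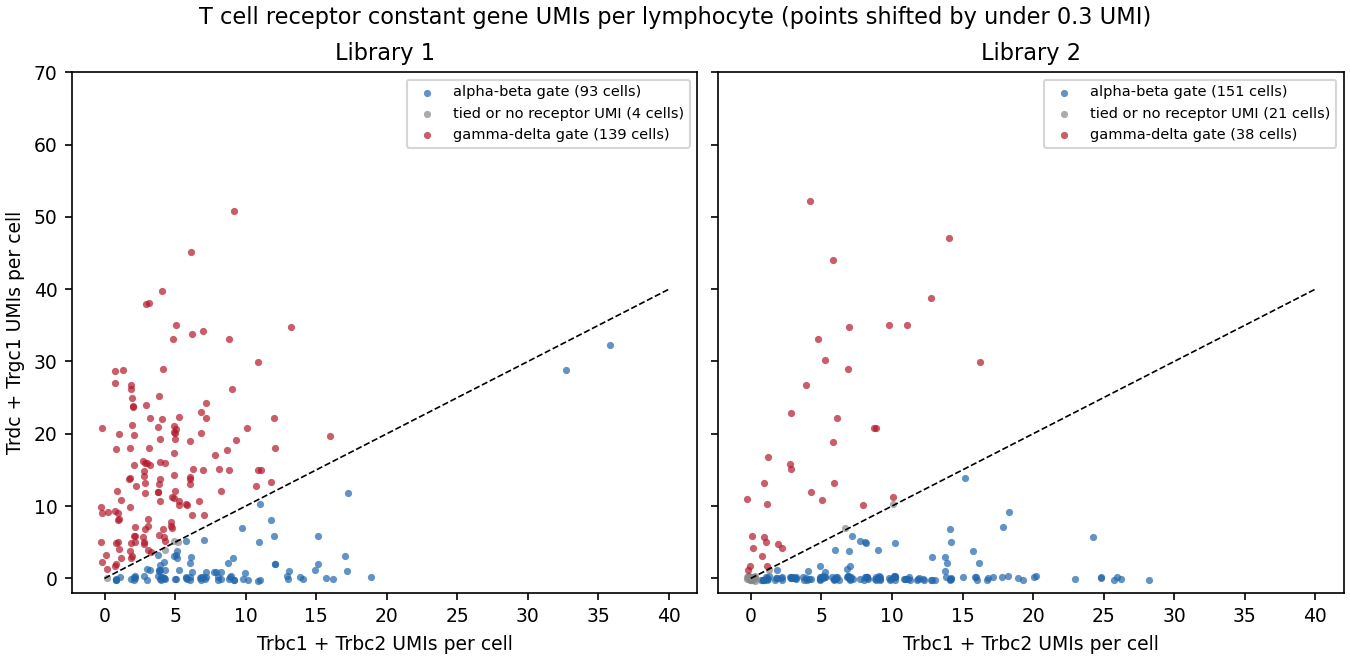
UMIs of Trdc and Trgc1 (vertical axis) against UMIs of Trbc1 and Trbc2 (horizontal axis) in each lymphocyte of the gate, library 1 on the left and library 2 on the right, with the dashed line marking equal sums. The gamma-delta cells (139 and 38) lie above the line by rule, many of them with some beta chain UMIs, and the alpha-beta cells (93 and 151) lie below it, mostly near 0 on the vertical axis.

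Gamma-delta cells made up 59.9% of the lymphocytes with a receptor call in library 1 (139 of 232; Clopper-Pearson 95% interval 53.3 to 66.3%) and 20.1% in library 2 (38 of 189; 14.6 to 26.5%). After each cell was thinned to 2000 UMIs, with shallower cells left out, the shares were 60.7% (99 of 163) and 21.5% (32 of 149). Lymphocytes of the gate were 5.82% and 5.64% of the barcodes kept. Gamma-delta cells were 3.43% of kept barcodes in library 1 and 1.02% in library 2, while alpha-beta cells were 2.29% and 4.05%. The intervals of the gamma-delta share did not overlap between the libraries, and the lymphocyte shares did. Counting Trgc2, Trgc3 and Trgc4 as gamma chain genes raised the shares to 83.6% and 49.7%. In that setting the order of the libraries was kept. The level of Trgc2 was 1470 and 1570 CPM in alpha-beta cells and 2094 and 1839 CPM in gamma-delta cells.

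The gamma-delta cells held 352485 UMIs in library 1 and 133769 in library 2. Their median was 2471 UMIs and 1419 genes per cell in library 1 and 3110.5 UMIs and 1677.5 genes in library 2, close to the alpha-beta medians of 2340 and 3057 UMIs and far below the 12132 and 12710 UMIs of epithelial cells. The libraries shared 40 barcode sequences, of which 0 belonged to gamma-delta cells. No doublet caller was run here. The 5 genes named as markers of these cells, Cd3g, Trdc, Trgc1, Gzma and Cd7, were all detected in both libraries, with a summed level of 47830 and 49720 CPM against 42.4 and 62.0 CPM in epithelial cells. Alpha-beta cells held the 5 genes at 34210 and 29340 CPM, so a high sum was not particular to gamma-delta cells. Of the 5 genes, Trdc, Trgc1 and Cd3g were part of the gate, and Gzma and Cd7 were not. Of 11 B and plasma cell markers, 8 were at 0 in gamma-delta cells, among them Cd79a, Ms4a1, Jchain and Igkc, while Ighm (244.0 and 112.1 CPM), Xbp1 (161.7 and 104.7 CPM) and Cd79b (25.5 and 22.4 CPM) were detected. That list summed to 431.2 and 239.2 CPM, against 218.1 and 261.2 CPM in epithelial cells. Of 13 myeloid markers, 8 were at 0, among them Csf1r, Adgre1, C1qa and S100a8, and the sum of 297.9 and 246.7 CPM was mostly Itgax (284 and 224.3 CPM). Of 11 innate lymphoid and natural killer markers, Eomes, Il1rl1, Il22 and Ccr6 were at 0, and 7 and 5 were detected, with a sum of 326.3 and 201.8 CPM against 44.5 and 54.7 CPM in epithelial cells. The part of such cells in the results was not tested.

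The 250 bases before the start of 4 genes are shown because the results compare abundant and nearly absent genes: Gzma and Gzmb, granzymes of high level, Fcer1g, an abundant signalling adaptor, and Cd5, a T cell surface gene nearly absent from these cells. The sequences are from RefSeq (GRCm38.p6), 5' to 3' on the minus strand that carries all 4 genes, for Gzma at chr13:113100982-113101231, for Gzmb at chr14:56262335-56262584 for Fcer1g at chr1:171234350-171234599 and for Cd5 at chr19:10738975-10739224. Capitals mark the RUNX core motif TGTGGT on either strand (ACCACA read on the strand shown), searched because the RUNX factors are known regulators of CD8 and granzyme genes.
Gzma: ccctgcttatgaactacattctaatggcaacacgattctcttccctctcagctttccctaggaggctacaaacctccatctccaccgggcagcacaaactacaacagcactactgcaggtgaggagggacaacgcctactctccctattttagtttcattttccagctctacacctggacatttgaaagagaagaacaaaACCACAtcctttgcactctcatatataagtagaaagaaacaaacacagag
Gzmb: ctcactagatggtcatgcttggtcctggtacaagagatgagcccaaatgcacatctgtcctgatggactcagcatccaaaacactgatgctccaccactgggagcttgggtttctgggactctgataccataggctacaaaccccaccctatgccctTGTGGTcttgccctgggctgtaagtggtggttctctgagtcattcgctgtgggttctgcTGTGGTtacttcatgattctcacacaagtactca
Fcer1g: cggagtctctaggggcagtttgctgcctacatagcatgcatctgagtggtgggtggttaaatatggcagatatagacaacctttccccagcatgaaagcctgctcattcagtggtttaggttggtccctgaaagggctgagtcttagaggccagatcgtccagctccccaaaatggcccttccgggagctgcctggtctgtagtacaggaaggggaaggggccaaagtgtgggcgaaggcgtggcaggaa
Cd5: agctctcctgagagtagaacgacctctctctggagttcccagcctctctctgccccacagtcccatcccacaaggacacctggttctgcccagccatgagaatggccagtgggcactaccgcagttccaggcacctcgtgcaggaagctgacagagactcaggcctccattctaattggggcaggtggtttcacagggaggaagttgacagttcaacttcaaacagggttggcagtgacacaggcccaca
The motif began 50 bases before the start of Gzma, and 93 and 34 bases before the start of Gzmb. It is in the window neither of Fcer1g nor of Cd5, which says only that these letters are missing there. Of all 32851 promoter windows of this length in the table, 14% held the motif and 1.27% held it at least 2 times. Among genes matched to the table, it was found in 4 of 13 of the genes with the highest levels in gamma-delta cells, in 1 of 8 genes called higher and in 5 of 19 genes called lower than in alpha-beta cells. Runx3, the RUNX gene best known in CD8 T cells, was at 400.0 and 254 CPM in gamma-delta cells and at 0.221 and 0.482 CPM in epithelial cells.

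Gzma, a granule protease (chromosome 13, 113093825 to 113100981, minus strand), had the highest level of any gene that is not ribosomal or mitochondrial, ranked by UMIs and not divided by transcript length. It reached 32360 CPM in library 1 (interval 31760 to 32960) and 37260 CPM in library 2 (36230 to 38310), with a median of 79 and 107.5 UMIs per cell. Epithelial cells held it at 28.7 and 50.0 CPM. Thinned to 2000 UMIs, 84.5% and 90.3% of gamma-delta cells carried a Gzma UMI (86.3% and 92.1% unthinned), against 4.84% and 9.59% of epithelial cells (28.9% and 44.0% unthinned), the measure of free RNA here. The chemokine Ccl5 followed with 20930 and 15480 CPM, and Gzmb, the second granzyme (chromosome 14, 56258838 to 56262260, minus strand), with 10670 and 16200 CPM. Gzmb was found almost only where Gzma was found: of the thinned gamma-delta cells, 84 of 103 in library 1 and 28 of 31 in library 2 carried both, 3 and 0 carried Gzma alone, and 0 and 0 carried Gzmb alone. Perforin was low beside them, with Prf1 at 65.3 and 52.3 CPM.

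Surface genes known from intraepithelial lymphocytes were abundant, though RNA levels of dissociated cells do not show where the cells had been. Cd7, a surface glycoprotein of T and natural killer cells, was at 6934 and 4949 CPM, Cd8a at 3211 and 2033 CPM, and Itgae, the alpha chain of CD103, at 1767 and 1361 CPM. Itgb7, which pairs with Itgae, was at 403 and 508 CPM, and Ccr9, the receptor for the gut chemokine CCL25, at 550.4 and 478 CPM. Il2rb, a receptor chain for interleukin-15, was at 1126 and 748 CPM. By contrast, Ccr7, Cx3cr1 and S1pr5, genes of recirculating or blood lymphocytes, had 0 UMIs in gamma-delta cells of both libraries. Of the cytokine list, Il10, Il13, Il17f, Il22, Csf1 and Csf2 were at 0 too, and Ifng had 5 and 2 UMIs. Defa24, a defensin of Paneth cells, stood among the 20 highest genes with 3149 and 1809 CPM, although epithelial cells held 10390 and 10560 CPM of it. Gamma-delta cells thus carried Paneth cell RNA, 5969 and 3783 CPM over 9 listed genes. In library 1, 2 cells held 906 and 201 of the 2104 Paneth UMIs, and the level without them was 2855 CPM.

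Each gene was next compared between gamma-delta and alpha-beta cells inside the same library, which asks how far the 2 receptor classes differ in the genes the gate did not use. A gene was called where the CPM ratio was at least 1.5-fold and its exact counting interval excluded 1 in both libraries. Of 4844 genes with at least 50 UMIs, 9 were called higher in gamma-delta cells (0.186% of the genes) and 30 were called lower (0.619%). Few genes other than those of the receptor thus passed the rule in both libraries. Within a single library many more passed, 115 higher and 210 lower in library 1 and 170 and 209 in library 2, and 17 genes were called in opposite directions. Many intervals at 95% let some genes pass by counting alone. Requiring both libraries lowers their number without removing them, and how many of the 9 and the 30 passed in this way was not tested.

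The clearest deficit of gamma-delta cells lay in genes of conventional T cells. Cd8b1, the CD8 beta chain (chromosome 6, 71322788 to 71337494, plus strand), had 0 UMIs in the 139 gamma-delta cells of library 1, which allows up to 2.16% of cells with a UMI, and 1 UMI in library 2. Alpha-beta cells held 215.8 CPM of it in library 1 and 611 CPM in library 2, so that gamma-delta cells were at least 25.4-fold lower in library 1 (against a floor of 3 counts per library) and stood at a ratio of 0.0122 in library 2 (interval 0.000309 to 0.0687). With Cd8a at ratios of 1.06 and 0.841, the CD8 beta chain gene and the alpha chain gene did not differ alike between the classes. Cd5, an inhibitory surface receptor of conventional T cells (chromosome 19, 10717116 to 10739002, minus strand), likewise had 0 UMIs in library 1 against 97.7 CPM in alpha-beta cells, at least 11.5-fold lower, and 14.95 CPM against 176.9 CPM in library 2. Cd6, a relative of Cd5, was at 8.51 against 122.2 CPM in library 1 and at 44.9 against 215 CPM in library 2. Icos, a costimulatory receptor, was at 5.67 against 73.3 CPM and at 22.4 against 95.1 CPM. Gamma-delta cells were below alpha-beta cells in both libraries for each of these 4 genes. With Trgc2, Trgc3 and Trgc4 counted as gamma chain genes, the library 2 ratio turned to 1.34 for Cd5 and was 0.940 for Cd6.

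Thy1, a surface glycoprotein that separates natural from conventional intraepithelial cells only in part, had ratios of 0.314 (102.1 against 325.7 CPM) and 0.424 (284 against 669.7 CPM). Of the 14 listed markers of induced or conventional T cells, 12 had at least 20 UMIs, of which 11 were lower in gamma-delta cells and 6 were called, while 0.432% of the 7632 genes with at least 20 UMIs were called lower. The median log2 ratio of the list was -2.06, against -0.04 over all those genes, with a gene at 0 UMIs set to a floor of 3 counts per library here and in the medians that follow. Trac, the alpha chain constant gene, is among these 6 and was left out of the count over all genes because it belongs to the receptor. Cd27 was the member with a higher mean, at ratios of 2.26 (0.996 to 5.79) and 0.873, which did not pass. Cd28, Foxp3 and Cd40lg were at 0 in gamma-delta cells of both libraries, and alpha-beta cells held 16.3 and 40.0 CPM of Cd28. The gate did not use these genes, apart from the link of Trac to the alpha-beta receptor.

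Of the adhesion and positioning genes, 2 integrin alpha chains were lower. Itgal, the alpha chain of the leukocyte integrin LFA-1, was called lower with ratios of 0.174 (19.9 against 114.0 CPM) and 0.165 (37.4 against 226.4 CPM). Itga4, which forms the gut homing integrin with Itgb7, was called lower at 0.537 and 0.357. Itgae kept ratios of 1.25 and 0.985, Itgb7 of 0.818 and 1.16, and Ccr9 of 0.913 and 1.15, none of which passed the rule. Itgax, another integrin alpha chain, was at 284 against 146.6 CPM (ratio 1.94, 1.31 to 2.92) in library 1 and at 224.3 against 156 CPM in library 2 (1.44, 0.913 to 2.21), so that it passed in library 1 alone. Of 19 homing genes with at least 20 UMIs, 12 were higher and 7 lower. Itgal and Itga4 were the 2 called, beside 0.432% of all such genes called lower.

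Among transcription factors, 3 were called lower and 0 were called higher of 24 measured, beside 0.432% and 0.144% of all genes with at least 20 UMIs. Tcf7, which encodes TCF-1, a factor of less differentiated T cells, was at 93.6 against 175.1 CPM in library 1 and at 14.95 against 182.6 CPM in library 2. Rora, an orphan nuclear receptor, had ratios of 0.380 and 0.340, and Maf had ratios of 0.398 and 0.138. The factors tied to the natural intraepithelial program did not differ by the rule: Runx3 had ratios of 1.02 and 0.786, Tbx21 of 1.74 (0.808 to 4.06) and 1.27 (0.581 to 2.57), and Id2 of 0.826 and 0.729. Ikzf2, which encodes Helios, was level in library 1 (661 against 651.5 CPM) and 2.20-fold higher in library 2 (531 against 241.6 CPM). The alpha-beta cells were the ones in which Ikzf2 differed between libraries.

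The 9 genes called higher had no common listed role. Tspan9, a tetraspanin of the cell membrane, had the highest ratio of the 9 in each library, 4.98 in library 1 (141.9 against 28.5 CPM; interval 2.25 to 13.0) and 5.76 in library 2 (164.5 against 28.5 CPM; 2.86 to 11.9). It was found in 37 of 139 and 15 of 38 gamma-delta cells, and in 4 of 93 and 9 of 151 alpha-beta cells. Pde4a, a phosphodiesterase that breaks down cyclic AMP, had ratios of 4.74 (1.84 to 15.5) and 2.88 (1.197 to 6.71). Adrb1, the beta-1 adrenergic receptor, which signals through cyclic AMP, was at 187.2 against 97.7 CPM in library 1 (1.92, 1.19 to 3.20) and at 134.6 against 70.4 CPM in library 2 (1.91, 1.03 to 3.44). Its ratio was 1.22 in library 1 for cells without an Epcam UMI and 1.004 in library 2 with the other gamma chain genes counted, and it was not called in either setting. Epithelial cells held Adrb1 at 0.123 and 0.0803 CPM. It was found in 25.2% and 25.8% of thinned gamma-delta cells (32.4% and 29.0% unthinned), and 25 of 26 and 8 of 8 of these cells carried Gzma as well. Most thinned cells without Adrb1 carried Gzma too: 62 did and 15 did not in library 1, and 20 did and 3 did not in library 2.

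Of 14 listed receptors for stress hormones, 2 reached 20 UMIs. The other, Nr3c1, which encodes the glucocorticoid receptor, was at 147.5 and 89.7 CPM in gamma-delta cells, with ratios of 0.739 and 0.575 to alpha-beta cells that did not pass. Hdac3, a histone deacetylase, had ratios of 2.35 and 2.55, and Pim2, a survival kinase, of 1.96 and 2.07. Ifngr1, the ligand-binding chain of the interferon gamma receptor, had 1.63 and 1.67, Snx18, a sorting nexin, 1.78 and 1.72, and Bmp2k, a kinase, 1.73 and 1.91 with a lower bound of 1.003 in library 2. Plac8 had 1.70 and 1.69, but epithelial cells held it at 1889 and 2519 CPM against 332 and 1047 CPM in gamma-delta cells, and the part of free epithelial RNA in its ratio was not tested. Without Epcam UMIs, 2 of these 9 genes passed together with 5 others, and after thinning to 2000 UMIs 2 passed together with 4 others, so the identity of the genes called higher moved with the cells used.

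**Figure D2:**
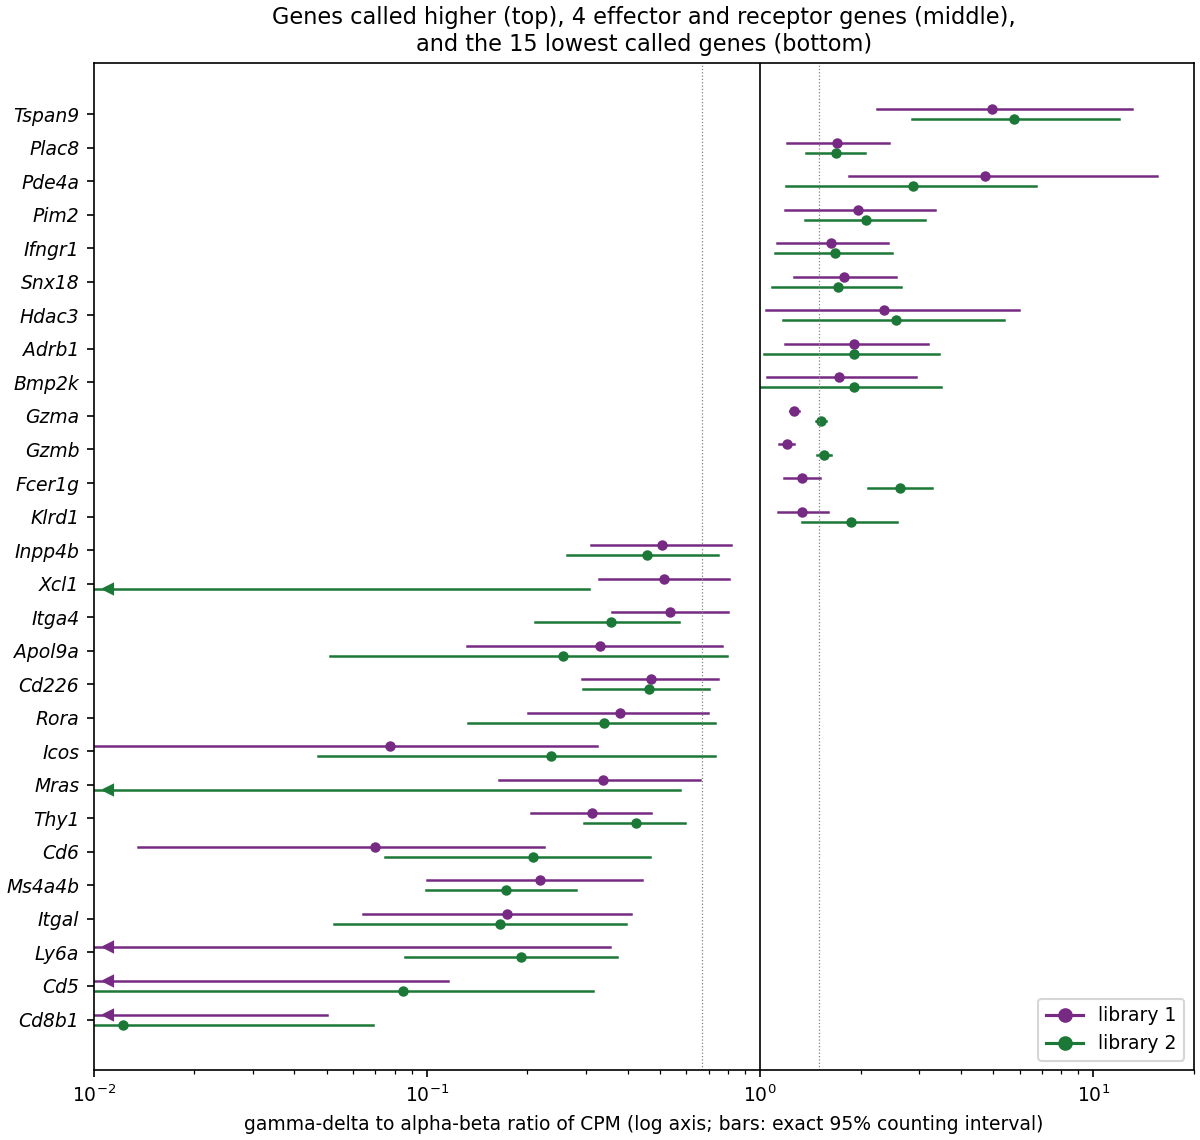
Ratio of CPM in gamma-delta to alpha-beta cells in library 1 (purple) and library 2 (green) on a log axis, with exact 95% counting intervals, triangles for genes with 0 UMIs in gamma-delta cells and dotted lines at 1.5-fold. Tspan9 and Pde4a lie farthest to the right, and the granzymes, Fcer1g and Klrd1 lie between 1.2 and 2.7. The triangles all stand at the same place at the left edge and show no size. Of the ratios above 0, that of Cd8b1 in library 2 (0.0122) is the lowest.

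Effector genes were shared by the 2 receptor classes. Of 16 measured cytotoxic genes, 10 were higher and 6 lower in gamma-delta cells and 0 were called in both libraries, with 0.144% of the genes with at least 20 UMIs called higher. Gzma had ratios of 1.26 (1.23 to 1.30) and 1.52 (1.47 to 1.57), and Gzmb of 1.201 (1.14 to 1.27) and 1.55 (1.48 to 1.63), both higher in gamma-delta cells of each library and past 1.5-fold in library 2 only. Nkg7, a granule membrane protein, was at 1694 and 1996 CPM with ratios of 1.02 and 1.23. Fasl, the ligand of the death receptor Fas, was at 229.8 and 134.6 CPM with ratios of 1.15 and 0.852. Gzmk was at 70.9 and 186.9 CPM with ratios of 0.968 and 0.910. Ccl5 was higher at 1.32 and 1.27, and Xcl1, a chemokine for cross-presenting dendritic cells, was lower, at 0.516 in library 1 and with 0 UMIs in library 2, at least 4.16-fold lower.

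Receptors and adaptors of natural killer type were carried by both classes. Fcer1g, an adaptor that couples receptors to signalling, was at 2065 and 1047 CPM in gamma-delta cells against 1551 and 398 CPM in alpha-beta cells, ratios of 1.33 (1.18 to 1.51) and 2.63 (2.11 to 3.28). Klrd1, which encodes CD94, had ratios of 1.34 and 1.87. Cd160 was lower at 0.766 and 0.680 without passing, and Cd226, an activating receptor, was called lower at 0.469 (93.6 against 199.5 CPM) and 0.463 (186.9 against 403 CPM). Klre1 was called lower, with 39.7 against 89.6 CPM in library 1 and 0 UMIs in library 2. Of 19 measured members of that list, 8 were higher and 11 lower. Cd226 and Klre1 were called, beside 0.432% of all genes with at least 20 UMIs called lower. In gamma-delta cells of both libraries 9 of 32 members were at 0. Of 25 measured signalling genes of the T cell receptor, 12 were higher, 13 lower and 0 called, with Lck at 0.945 and 0.986 and Zap70 at 1.16 and 1.24. Over all genes with at least 20 UMIs, 0.144% were called higher and 0.432% lower. The median log2 ratio of these signalling genes was 0.16 in library 1 and -0.28 in library 2.

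Most interferon induced genes were lower in gamma-delta cells without passing the rule. Of 31 measured, 28 were lower and 2 were called lower (0.432% of all genes with at least 20 UMIs), with a median log2 ratio of -0.54 beside -0.04 over all genes. Ifi27l2a was called at 0.241 (25.5 against 105.9 CPM) and 0.662 (374 against 565 CPM). Rsad2, an antiviral gene, had 0 UMIs against 28.5 CPM in library 1 and 14.95 against 64.7 CPM in library 2. Ifit1 had 0.232 and 0.293, with 1 and 7 UMIs in gamma-delta cells. Outside the list, Ly6a, which encodes Sca-1 and responds to interferon, had 0 UMIs against 36.7 CPM in library 1, at least 4.31-fold lower, and 67.3 against 352 CPM in library 2.

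The remaining named genes were lower in gamma-delta cells. Ms4a4b, a T cell membrane protein, was at 31.2 against 142.5 CPM in library 1 and at 127.1 against 736 CPM in library 2. Mras, a Ras family member, had a ratio of 0.336 in library 1 and 0 UMIs in library 2, at least 2.29-fold lower. Inpp4b, a lipid phosphatase, had 0.507 and 0.456, and Apol9a had 0.330 and 0.256. None of these was a gene of the gate.

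The gamma chain variable genes gave a partial view of the receptors. Trgv genes had 313 UMIs in 110 of 139 gamma-delta cells of library 1 and 116 UMIs in 31 of 38 of library 2. Trgv2 held 219 and 75 of these UMIs, Trgv1 held 62 and 27, and Trgv7, the variable gene known for duodenal and other small intestinal gamma-delta cells, held 23 UMIs in 16 cells and 14 UMIs in 10 cells. In alpha-beta cells of library 1 and library 2, Trgv7 had 5 UMIs in 3 of 93 cells and 0 UMIs in 151 cells, whereas Trgv2 had 116 and 251 UMIs. Trgv1 had 32 UMIs in 21 alpha-beta cells and 29 UMIs in 22. UMIs of Trgv1 and Trgv2 were thus found in both classes in both libraries. Delta chain variable genes gave 15 UMIs and 1 UMI, too few to describe.

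By the mean of its ranks in the libraries, the variance over mean among gamma-delta cells was highest for abundant effectors, though in neither library alone were these the top 3. Thinned to 2000 UMIs (103 and 31 cells), 4928 genes had a mean of at least 0.05 UMI in each library. In library 1 Gzma ranked 8 and Ccl5 10, and in library 2 mt-Cytb ranked 1. The variance over mean was 17.8 and 24.6 for Ccl5, 19.8 and 18.4 for Gzma, 13.9 and 11.7 for Gzmb and 8.09 and 6.99 for Rgs1, a brake on chemokine receptor signalling. Then came mt-Nd1 (3.73 and 12.2), Tmsb4x (4.06 and 5.27), Top2a (5.21 and 4.44), Klra5 (3.95 and 4.0), Actb (3.33 and 4.83) and Fos (3.66 and 4.31). Most of these genes also have high means, and Top2a and Klra5 were the ones with means under 1 UMI. Klra5, a Ly49 family receptor whose relatives are near-identical, had 53 UMIs in 16 of 139 gamma-delta cells and 10 UMIs in 3 of 38. The Gzma UMIs of 1 cell ranged from 0 to 281 in library 1 and from 0 to 439 in library 2.

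The libraries were compared within gamma-delta cells as library 2 over library 1. Of 2014 genes with at least 50 UMIs, 131 were called higher in library 2 (6.5%) and 167 were called lower (8.29%), at 1.5-fold with an interval that excludes 1. Of the 131, 39 had a higher level in epithelial cells than in gamma-delta cells of both libraries, and of the 167, 9 had. The same share was not taken over all 2014 genes, so no excess or deficit can be read from these counts. In alpha-beta cells, where 5.68% and 5.13% of genes were called, 20 of the 131 (and of 186 alpha-beta genes) were called the same way and 1 the opposite way. Of the 167 (and of 168 alpha-beta genes), 38 were called the same way and 6 the opposite way.

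Natural killer receptor and adaptor genes were lower in library 2. Tyrobp, which encodes the adaptor DAP12 (chromosome 7, 30413760 to 30417585, plus strand), was at 899 CPM in library 1 and 164.5 CPM in library 2, a ratio of 0.183 (0.113 to 0.282), and was found in 81 of 139 and 8 of 38 cells. Thinned, the shares were 56.3% and 12.9%, against 0.332% and 0.0387% of epithelial cells. Alpha-beta cells showed the same ratio within the intervals, 0.163 (0.124 to 0.211). Klrd1 was at 1118 and 426 CPM (0.381), and Klrh1, a lectin-like receptor, at 147.5 and 14.95 CPM (0.101), with 0.274 and 0.0719 in alpha-beta cells. Fcer1g was at 2065 and 1047 CPM in gamma-delta cells (0.507) and at 1551 and 398 CPM in alpha-beta cells (0.256). Of 11 members with at least 20 UMIs, 9 were lower and 6 were called lower (beside 5.63% of all 4776 genes with at least 20 UMIs), and 2 were higher, with Cd226 called higher at 1.996 (1.14 to 3.46). The median log2 ratio was -0.98, against -0.04 over all those genes, and -0.62 over the 17 members measured in alpha-beta cells, of which 7 were called lower and 2 higher (4.74% and 4.28% of all alpha-beta genes).

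Other surface and signalling genes went the same way. Kit, the stem cell factor receptor, was at 218.4 and 37.4 CPM (0.171, 0.0540 to 0.417), found in 42 of 139 and 5 of 38 cells. Kit is also on the mast cell list, of which 2 of 7 members were detected in library 1 and 1 in library 2, with sums of 227.0 and 37.4 CPM. Besides Kit this was Cpa3, with 3 and 0 UMIs, and Mcpt1, Mcpt2, Fcer1a, Cma1 and Ms4a2 were at 0. Il2rb was at 1126 and 748 CPM (0.664), Cd8a at 0.633 of its library 1 level and Runx3 at 0.635. The Cd8a ratio was 0.691 without cells with both Mki67 and Top2a and 0.812 with the other gamma chain genes counted. The Runx3 ratio was 0.679 in thinned cells, and neither gene was called in these settings. Kmt2c, a histone methyltransferase, had 0.216, Tob2, an antiproliferative factor, 0.237, Mrpl9, a mitochondrial ribosome protein, 0.161, Prrt1 0.311 and Ptpn11, which encodes the phosphatase SHP-2, 0.235. For Kmt2c, Tob2, Mrpl9 and Ptpn11, library 2 rests on 3 to 9 UMIs, and alpha-beta ratios were 0.715, 0.623, 0.972 and 0.847. Xcl1 had 37 UMIs in library 1, all in 11 cells, and 0 in library 2, at least 4.68-fold lower, with 0.458 in alpha-beta cells.

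Defa39, a Paneth cell defensin, was lower at 0.439 (1140 and 501 CPM) in gamma-delta cells and higher at 1.73 in alpha-beta cells. Of 8 Paneth genes measured in gamma-delta cells, 7 were lower in library 2 and 2 were called (beside 5.63% of all genes with at least 20 UMIs). In alpha-beta cells 9 of 9 were higher. Without the 2 library 1 cells that held over 100 Paneth UMIs, the Defa39 ratio was 1.12. The lower Paneth level of library 2 thus rested on 2 cells.

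**Figure D3:**
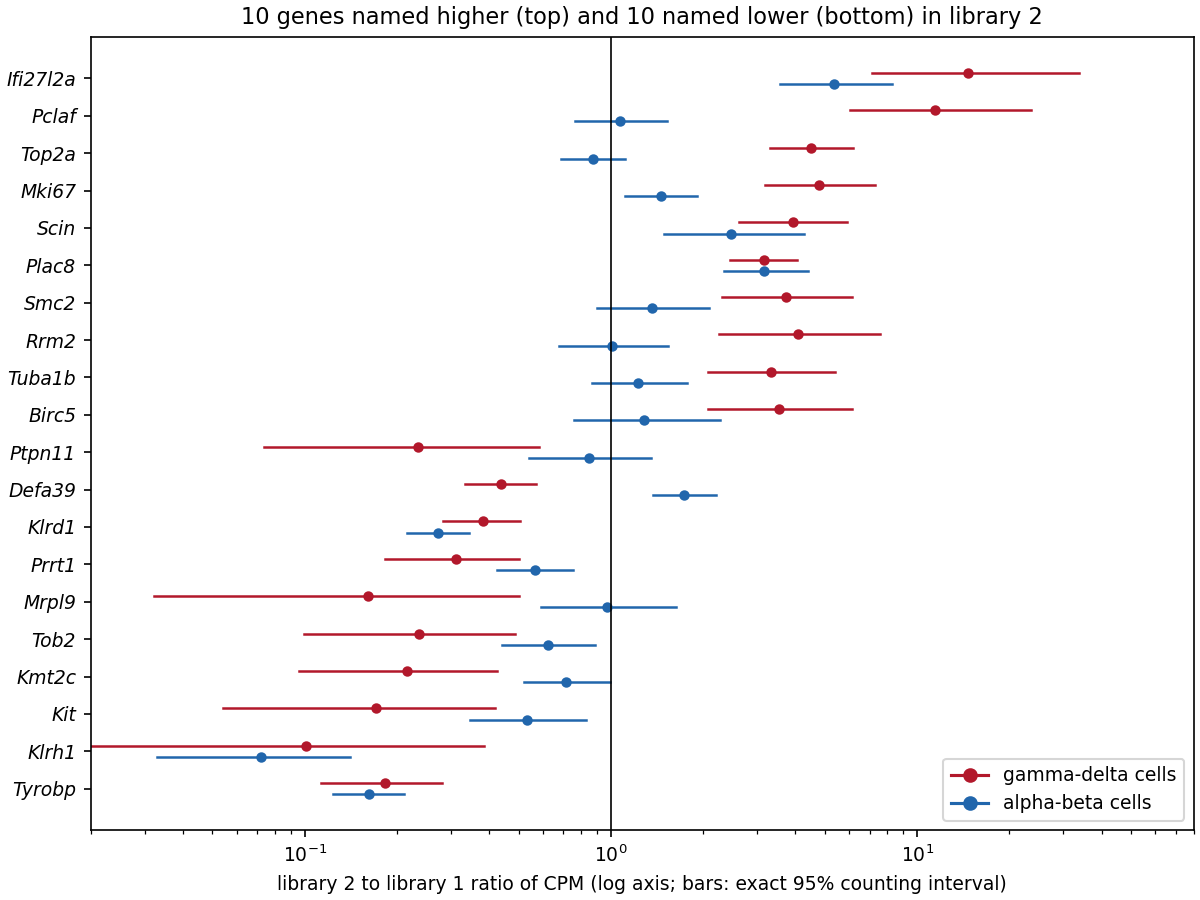
Ratio of CPM in library 2 to library 1 for the 10 genes named higher and the 10 named lower, in gamma-delta cells (red) and alpha-beta cells (blue), on a log axis with exact 95% counting intervals. Tyrobp, Klrh1, Klrd1 and Plac8 lie close together in both classes, the division genes Top2a, Mki67, Pclaf and Rrm2 lie far to the right in gamma-delta cells and near 1 in alpha-beta cells, and Defa39 lies on opposite sides of 1.

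Interferon induced genes were higher in library 2. Ifi27l2a was at 25.5 CPM in library 1 and 374 CPM in library 2, a ratio of 14.6 (7.13 to 33.9), and it was found in 6 of 139 and 21 of 38 cells. Rtp4 was at 19.9 and 164.5 CPM (8.28), Isg20 at 25.5 and 97.2 CPM (3.81) and Ifi213 at 28.4 and 89.7 CPM (3.16). Of 20 measured genes, 17 were higher and 7 called (beside 4.98% of all genes with at least 20 UMIs), with a median log2 ratio of 0.71. The alpha-beta cells had all 31 of 31 measured genes higher and 23 called, with a median of 1.41, and the summed level of the list in epithelial cells was 403 CPM in library 1 and 1216 CPM in library 2. The summed level was 2270 and 3805 CPM in gamma-delta cells and 2785 and 6048 CPM in alpha-beta cells, so that library 2 was the higher one in all 3 classes of cells.

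Genes of cell division were higher in library 2, in few cells. Top2a, which untangles DNA in division (chromosome 11, 98992943 to 99024189, minus strand), was at 193 CPM in library 1 and 867 CPM in library 2, a ratio of 4.50 (3.30 to 6.16). Mki67, the Ki-67 antigen, was at 107.8 and 516 CPM (4.79), Pclaf, a partner of the replication clamp, at 34.0 and 389 CPM (11.4) and Rrm2, of deoxynucleotide synthesis, at 56.7 and 231.7 CPM (4.08). Smc2, a condensin subunit, had 3.74, Tuba1b, an alpha tubulin, 3.33 and Birc5, which encodes survivin, 3.55. Of the 20 division genes found, 16 had at least 20 UMIs. All 16 were higher and 13 were called (beside 4.98% of all genes with at least 20 UMIs), with a median log2 ratio of 1.31. In alpha-beta cells 13 of 19 were higher and 1 was called (beside 4.28% of all alpha-beta genes), with a median of 0.19.

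Most of these UMIs came from a handful of cells. In library 2, 5 cells held 80.4% of the UMIs of the list, and in library 1, 5 cells held 44.3%, while the median cell had 4 and 3 such UMIs. Both Mki67 and Top2a were found in 5 of 139 gamma-delta cells of library 1 (3.60%, 1.18 to 8.20%) and in 8 of 38 of library 2 (21.1%, 9.55 to 37.3%). In alpha-beta cells the counts were 8 of 93 and 21 of 151. These 5 and 8 cells had median depths of 5031 and 5475 UMIs, above the 2471 and 3110.5 of all gamma-delta cells, and the part of depth or of doublets in them was not tested. Gzma was found in 5 of 5 and 8 of 8 of them, at 32310 and 36990 CPM, against 32360 and 37400 CPM in the other gamma-delta cells. Without these cells the median of the list was -0.18, Rrm2 had 0 UMIs in library 2, and 60 genes were called higher and 94 lower, of which 38 and 74 were among those called before.

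**Figure D4:**
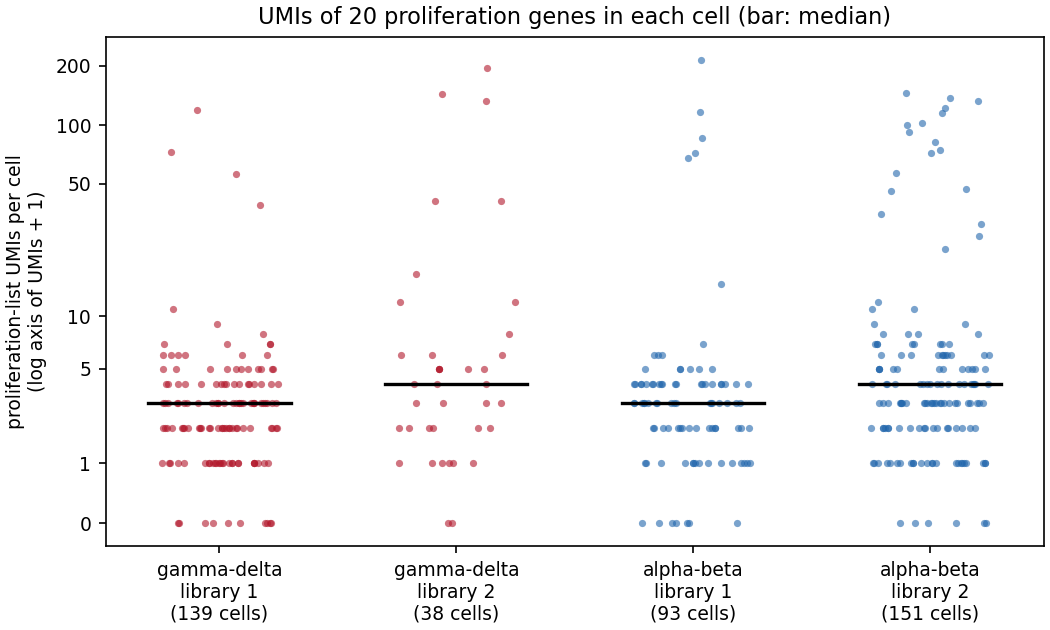
UMIs of 20 proliferation genes in each cell, on a log axis of UMIs plus 1, for gamma-delta cells (red; 139 and 38) and alpha-beta cells (blue; 93 and 151) of each library, with bars at the medians (3, 4, 3 and 4 UMIs). Most cells lie under 10 UMIs, and the highest gamma-delta cells reach 119 in library 1 and 194 in library 2.

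Nuclear genes of oxidative phosphorylation were higher in library 2 and immediate early genes mostly lower. Of 17 oxidative phosphorylation genes, 17 were higher and 6 called (4.98% of all genes with at least 20 UMIs), with a median log2 ratio of 0.45, and Atp5b, an ATP synthase subunit, was at 261 and 471 CPM (1.80). The mitochondrially encoded genes had a median of 0.17, with 7 of 8 higher and 0 called. Glycolysis genes were higher in 7 of 9, with Gapdh at 460 and 755 CPM (1.64) and Ldha at 329 and 531 CPM (1.61). The glycolysis median was 0.65 in gamma-delta cells. Alpha-beta cells had medians of 0.29 for oxidative phosphorylation, 0.017 for mitochondrially encoded and 0.24 for glycolysis genes. Of 21 immediate early genes, 18 were lower in library 2 and 5 were called (beside 5.63% of all genes), with a median of -0.59, against 0.07 in alpha-beta cells. Nr4a2, an orphan nuclear receptor induced on activation, was at 471 and 224.3 CPM (0.476), and Dusp1, a MAP kinase phosphatase, at 309 and 149.5 CPM (0.484). Fos was at 1004 and 807 CPM (0.804). In epithelial cells the summed level of this list was 6012 and 4417 CPM.

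Of 13 measured glucocorticoid induced genes, 9 were lower in library 2, with 3 called lower and 0 called higher (beside 5.63% and 4.98% of all genes) and a median of -0.34. Those called were Dusp1, Txnip (255.3 and 157 CPM; 0.615, 0.363 to 0.997) and Bcl2l11 (232.6 and 134.6 CPM; 0.578, 0.327 to 0.972), the latter a gene of cell death. In alpha-beta cells 9 of 16 were higher, 3 were called higher and 0 lower, with a median of 0.04. Fkbp5, a chaperone partner of the glucocorticoid receptor, was at 116.3 and 157 CPM (1.35, 0.758 to 2.34), and Tsc22d3, which encodes GILZ, at 136.2 and 67.3 CPM (0.494, 0.213 to 1.02). The intervals of Fkbp5 and Tsc22d3 included 1.

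**Figure D5:**
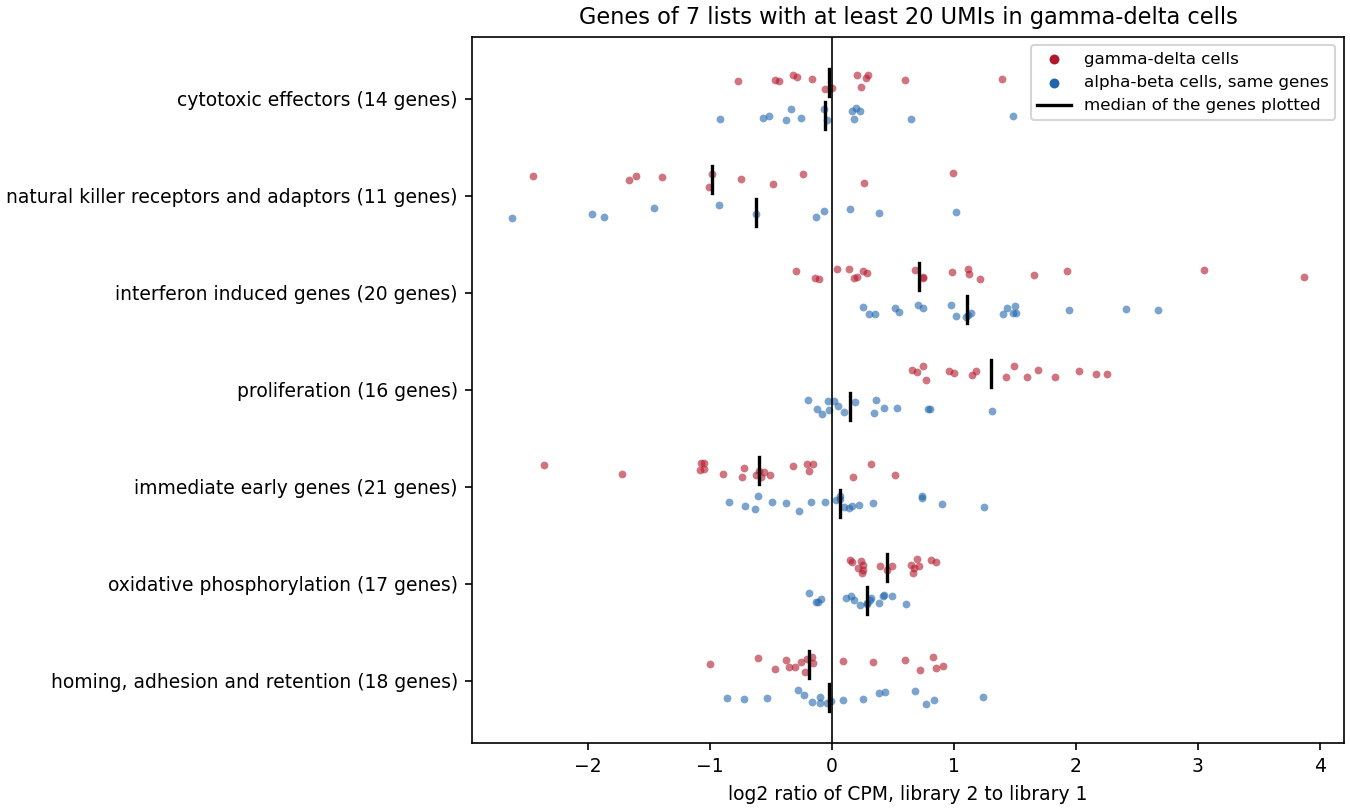
Log2 ratio of CPM in library 2 to library 1 for the genes of 7 lists with at least 20 UMIs in gamma-delta cells, shown for gamma-delta cells (red) and for the same genes in alpha-beta cells (blue), with black bars at the medians. Natural killer receptor genes lie mostly below 0 and interferon induced genes mostly above 0 in both classes, while proliferation genes lie above 0 and immediate early genes below 0 in gamma-delta cells and near 0 in alpha-beta cells.

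Effector and retention genes differed less. Of 14 cytotoxic genes measured, 7 were higher and 7 lower in library 2, with a median of -0.03. Over all genes with at least 20 UMIs, 4.98% were called higher and 5.63% lower. Gzmb was called higher at 1.52 (1.44 to 1.602) and Gzmk at 2.64 (1.45 to 4.78), Fasl was called lower at 0.586 (0.331 to 0.985), and Gzma was at 1.15. Ccl5 was at 0.740 and Itgae at 0.770 of the library 1 level, which did not reach 1.5-fold. Jaml, an adhesion molecule that costimulates gamma-delta cells through the epithelial protein CAR, was called higher with 366 and 650.4 CPM (1.78, 1.34 to 2.35), with a UMI in 45.6% and 67.7% of thinned gamma-delta cells (54.7% and 76.3% unthinned) beside 20.9% and 17.6% of thinned epithelial cells. Plac8 (3.15 in gamma-delta and 3.17 in alpha-beta cells) and Scin, an actin severing protein (3.92 and 2.46), were higher in library 2 in both classes, and both are expressed in epithelial cells. Goblet cell genes, 7 of 7 higher in gamma-delta cells and 5 called (4.98% of all genes), summed to 641 and 1211 CPM there and to 7776 and 12350 CPM in epithelial cells. Their part in the higher genes of library 2 was not tested.

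The epithelial cells of the same libraries carried known ligands and partners of these lymphocytes, of which 18 listed genes were found. Btnl1, a butyrophilin-like protein that sustains small intestinal gamma-delta cells, was at 89.8 CPM in library 1 and 119.5 CPM in library 2, a ratio of 1.33 (1.27 to 1.39). Btnl6, its partner, was at 6.24 and 7.71 CPM (1.24, 1.04 to 1.47). H2-T3, the thymus leukemia antigen that binds the CD8 alpha pair, was at 97.2 and 108.5 CPM (1.12), Cdh1, the E-cadherin bound by CD103, at 441 and 471 CPM (1.07), Ccl25 at 887 and 911 CPM (1.03) and Il15 at 9.62 and 8.56 CPM (0.890). None of these 6 reached 1.5-fold. Of the 18, H2-Q1, H2-T22, Btnl2 and Il7 were called higher in library 2, at 1.59, 1.56, 1.57 and 1.87, and the others were not called. Over all 12393 genes measured in epithelial cells, 5.92% were called higher and 1.74% lower.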

How the data were processed

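Single-cell RNA libraries of duodenal crypts from the NT and ES groups, 5 animals pooled in each, were deposited as 1 matrix. The authors deposited raw counts of UMIs per gene and barcode for 31253 features, made with Cell Ranger 2.1.1 on build mm10, per the submitters' processing notes. The annotation used and any filter are not stated there. A Chromium V3 kit is named in the protocol, but barcodes are 27 bases long, so the chemistry is not settled. Features with 1 symbol were merged (43 symbols).

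Counts were summed per library over the cells of each class and scaled to CPM. Library totals of UMIs were 48383442 and 46548876 over kept barcodes. Ratios have exact 95% binomial intervals of 2 Poisson counts. With 1 library per suffix there is no test. A gene was called at 1.5-fold with an interval excluding 1, from 50 UMIs (20 UMIs for lists). Cells were thinned to 2000 UMIs with a fixed seed for shares of cells. No doublet caller was run. Python 3.11.15, numpy 2.4.6, scipy 1.17.1, pandas 2.3.3 and matplotlib 3.10.9 were used. The call rule was also run on simulated Poisson counts, with changes larger than 1.5-fold in genes well above the UMI minimum. That run cannot show how reliable calls near the fold or UMI limit are, or how spread between cells affects them. Positions are from GENCODE M21, which held 31107 of the 31253 feature identifiers, and promoter windows from RefSeq.

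The named genes are, by the interval bound nearest to 1, up to 15 called higher (only 9 were) and 15 called lower against alpha-beta cells, the 10 highest and 10 lowest between libraries, the 20 highest levels, the 10 most variable genes, members of the 38 gene lists, and epithelial ligands. The members and lists were chosen with earlier results of these data known. Alternatives changed the filters, the gate, the receptor rule, the depth, the scaling, the UMI minimum and the fold, and further ones were added after seeing the data.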

Additional observations from a re-analysis of the deposited data

Results flagged for a closer look

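In library 2, 18 lymphocytes of the gate had no receptor UMI and entered no comparison, against 1 in library 1. They carried B cell genes, with Cd79a in 9, Cd74 in 17 and Igkc in 14 of the 18 cells, a summed level of 9402 CPM over 11 B and plasma cell markers, and Gzma in 1 cell. Tyrobp was found in 6 of the 18 cells, and 3 of 13 myeloid markers were detected, with a sum of 1018 CPM.

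Some listed genes differed from alpha-beta cells in opposite directions in the libraries, a difference that was not tested. The ratio of gamma-delta to alpha-beta cells was 0.164 in library 1 and 1.75 in library 2 for Pclaf, 0.443 and 2.28 for Top2a, and 0.578 and 1.69 for Tubb5, all genes of dividing cells. For Itln1, a Paneth and goblet cell lectin, it was 1.61 and 0.595. The ratio of library 2 to library 1 ran in opposite directions in gamma-delta and alpha-beta cells for the Paneth defensins Defa24 (0.575 and 1.62), Defa30 (0.5997 and 1.55) and Defa39 (0.439 and 1.73). Without the 2 library 1 gamma-delta cells of over 100 Paneth UMIs, the gamma-delta ratio of Defa39 was 1.12 and the median log2 ratio of the Paneth list was 0.36. The ratio of library 2 to library 1 also ran in opposite directions in the 2 classes for Casp8, a caspase of death receptor signalling (0.551 and 1.73). The same held for Ccl3, a chemokine (0.502 and 1.87). These opposite directions were not tested either.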

How the results depend on the processing

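Of the alternative values of counts and shares of cells, 83 moved by less than their spread or by less than 1.5 times and 27 by more. Counting Trgc2, Trgc3 and Trgc4 as gamma chain genes gave 91 gamma-delta cells in library 2 and shares of 83.56% and 49.73%, and 1 gene (of 10 higher calls then and 9 as reported) and 14 genes (of 24 lower calls and 30) were shared with those reported. Cells without an Epcam UMI left 24 cells in library 2, with 72 genes higher and 95 lower in library 2. A receptor margin of 8, added after seeing the data, left 83 and 24 cells, a share of 74.77% in library 1 and 14 genes higher than in alpha-beta cells. The 2-fold rule gave 3 higher and 18 lower against alpha-beta cells, and 38 and 80 between libraries. Thinned cells gave 15 lower against alpha-beta cells, and 39 and 66 between libraries. From 20 UMIs, 238 and 269 genes were called between libraries, and with no minimum 407 and 307. Each library alone, also added, gave 115 higher and 210 lower (library 1) and 170 and 209 (library 2). Without cells with both Mki67 and Top2a, added too, 60 and 94 genes were called between libraries. The share of higher calls against alpha-beta cells, 23.1% as reported, was 33.3% without the deepest 5% of cells and 38.9% at a margin of 8, and between libraries, 44.0% as reported, it was 57.0% with no minimum and 32.2% at 2-fold.

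For single genes named in the text or in the lists, 1342 alternative values kept the call. For genes not called, these include ratios that crossed 1 and stayed uncalled. Of the others, 112 lost the call, 6 gained it and 11 values of called genes reversed. With the other gamma chain genes counted, the library 2 ratio to alpha-beta cells was 0.928 for Bmp2k, 1.34 for Cd5 and 0.938 for Ifngr1, and thinned cells gave 0.945 for Ifngr1. At a margin of 8, Mras had 1.14 in library 1. The library ratio of Defa39 was 1.11 with at least 1000 genes, 1.14 at a margin of 8 and 1.12 without the cells of over 100 Paneth UMIs. Without cells with both Mki67 and Top2a it was 0 for Rrm2, 0.565 for Smc2 and 0.251 for Tuba1b. The cause was not tested where cells differed. The 38 gamma-delta cells of library 2 limit what can be seen there: a gene at 0 allows up to 7.89% of cells with a UMI. No paired analysis was possible because each group is 1 pooled library.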
